A study of Mus musculus with 11 samples.

Results

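The 4 epidermal connexins Gjb2, Gjb6, Gjb5 and Gja1 were described in mouse back skin with dermatitis. They were picked by gene symbol from the 24411 genes in the files. No rule on their values was used, but earlier results of these data were known when they were chosen. Connexins are membrane proteins that assemble into hemichannels, and hemichannels of neighbouring cells dock into gap junctions that pass ions and small metabolites. Keratinocytes carry several connexins in overlapping layers. Gja1 encodes Cx43, the main gap junction protein of basal and spinous keratinocytes, which is also made in hair follicles, dermal fibroblasts and vessels. Gjb2 (Cx26) and Gjb6 (Cx30) are known for low levels in resting epidermis between follicles, and for induction in wounded or hyperproliferative epidermis. Both are also made in hair follicles. Gjb5 (Cx31.1) belongs to the differentiating layers.

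Total RNA was sequenced from 11 samples of back skin of host mice of the strain Tg(act-EGFP)Y01Osb, whose age label reads 16 to 18 without a unit. All hosts had 10 Gy of irradiation and a tail vein transfer of sorted femoral marrow from Pdgfra-Cre;tdTomato donors, where the red label marks a history of Pdgfra promoter activity and not present expression. The donor cells were tdTomato-negative in 7 samples and tdTomato-positive in 4 samples. After 6 weeks, MC903, a vitamin D analog that induces a dermatitis used as a model of atopic dermatitis, was applied 6 times in both groups, and skin was taken on day 14. The groups thus share irradiation, transplantation and dermatitis, and no sample without MC903 was analysed here. Whether each sample is a separate animal is not in the labels, and the p-values therefore measure sample-to-sample spread, which may be technical. Expected counts, which are RSEM's estimates of reads per gene, summed to 7190752 to 9749842 per sample. The keratinocyte markers Krt5 and Krt14 were high in each sample, with lowest values of 3056 and 3156 CPM (counts scaled to a common library total with TMM factors).

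The 4 genes lie at 3 places in the genome (RefSeq, GRCm38.p6). Gjb2 (14:57098602-57104702) and Gjb6 (14:57123301-57133611) are neighbours on the minus strand of chromosome 14, with 18598 bases between them. Gjb5 (4:127354809-127358164) lies on the minus strand of chromosome 4. Gja1 (10:56377300-56390419) lies alone on the plus strand of chromosome 10. No other GENCODE gene overlapped any of the 4, and their expected counts were whole numbers in all 11 samples (within 0.005), so no fractional assignment of reads was seen for them.

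The promoters of the 4 genes are shown as the sequence at 1 RefSeq start of each gene. The levels given are per gene, and that of Gjb6 sums 2 RefSeq transcripts. Each sequence runs 5′ to 3′ on the gene's own strand, from 250 bases before the start to 50 bases after it. Capitals mark matches on either strand to 5 short motifs, and no match overlapped another. The motif TATAAA is that of the TATA-binding protein. The motif CCAAT is bound by nuclear factor Y. The motif GGGCGG is the GC box bound by Sp1. The motif TGANTCA is the AP-1 site. The motif AGGTCA is recognised by nuclear receptors.
Gjb2 (chr14:57104653-57104952, minus strand): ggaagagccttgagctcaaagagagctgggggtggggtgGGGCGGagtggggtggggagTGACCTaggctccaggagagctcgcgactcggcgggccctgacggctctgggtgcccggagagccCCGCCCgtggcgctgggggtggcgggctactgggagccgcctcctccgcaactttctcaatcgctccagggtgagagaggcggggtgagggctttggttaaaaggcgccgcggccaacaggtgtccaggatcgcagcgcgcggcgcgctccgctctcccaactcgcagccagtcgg
Gjb6 (chr14:57133562-57133861, minus strand): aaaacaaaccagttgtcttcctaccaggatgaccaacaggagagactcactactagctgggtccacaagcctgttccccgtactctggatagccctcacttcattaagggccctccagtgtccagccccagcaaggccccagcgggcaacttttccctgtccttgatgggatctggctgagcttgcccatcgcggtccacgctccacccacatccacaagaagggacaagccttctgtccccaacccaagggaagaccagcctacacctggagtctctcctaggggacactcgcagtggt
Gjb5 (chr4:127358115-127358414, minus strand): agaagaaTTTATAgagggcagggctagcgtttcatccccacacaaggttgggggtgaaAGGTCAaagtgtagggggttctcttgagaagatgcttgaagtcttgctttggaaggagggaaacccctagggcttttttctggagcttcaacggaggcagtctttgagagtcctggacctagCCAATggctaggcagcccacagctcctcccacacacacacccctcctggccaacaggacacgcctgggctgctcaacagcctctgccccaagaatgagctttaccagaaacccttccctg
Gja1 (chr10:56377050-56377349, plus strand): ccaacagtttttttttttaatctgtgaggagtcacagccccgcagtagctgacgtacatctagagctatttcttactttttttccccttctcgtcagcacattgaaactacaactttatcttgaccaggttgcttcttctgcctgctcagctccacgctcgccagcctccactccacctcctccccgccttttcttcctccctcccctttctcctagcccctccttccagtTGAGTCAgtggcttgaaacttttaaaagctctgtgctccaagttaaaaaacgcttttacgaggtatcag
The Gjb2 window had the highest GC content of the 4, 70.0%, with 27 CpG dinucleotides, 2 GC boxes and 1 nuclear receptor motif. The Gjb6 window had 57.3% GC and 6 CpG, and none of the 5 motifs was found in it. The Gjb5 window (54.3% GC, 3 CpG) held a TATA box match 243 bases before the start, a CCAAT motif and a nuclear receptor motif. The Gja1 window (47.7% GC, 8 CpG) held 1 AP-1 match, 19 bases before the start. Over 32851 mouse promoters of the same length the median was 52.7% GC and 7 CpG. In these promoters 13.6% held the TATA motif, 37.4% the CCAAT motif, 35.7% the GC box, 7.8% the AP-1 site and 16.3% the nuclear receptor motif. A match is a run of letters only.

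Per unit of length, the connexin RNA of this skin was mostly Gja1 and Gjb2. Levels of different genes were compared as TPM, the authors' deposited transcript abundance per unit of length, scaled to the same total in each sample. Gja1 had 699 ± 310 TPM (SD, n = 7) in the negative and 319 ± 163 TPM (SD, n = 4) in the positive group. Gjb2 had 544 ± 160 and 362 ± 181 TPM. Gjb6 was lower, at 71.1 ± 12.8 and 74.6 ± 37.5 TPM, and Gjb5 lowest of the 4, at 21.9 ± 4.25 and 21.1 ± 9.59 TPM. The share of Gja1 in the summed TPM of the 20 connexin genes was 43.1 ± 10.7% (SD, n = 7) in the negative and 31.6 ± 7.46% (SD, n = 4) in the positive group. That of Gjb2 was 35.5 ± 4.32% and 35.8 ± 9.36%. Single samples departed from these means, and in positive replicate 3 the shares were 26.7% for Gja1 and 24.4% for Gjb2. The summed connexin TPM ranged from 840 to 1897 in the negative and from 705 to 1266 in the positive group.

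**Figure D1:**
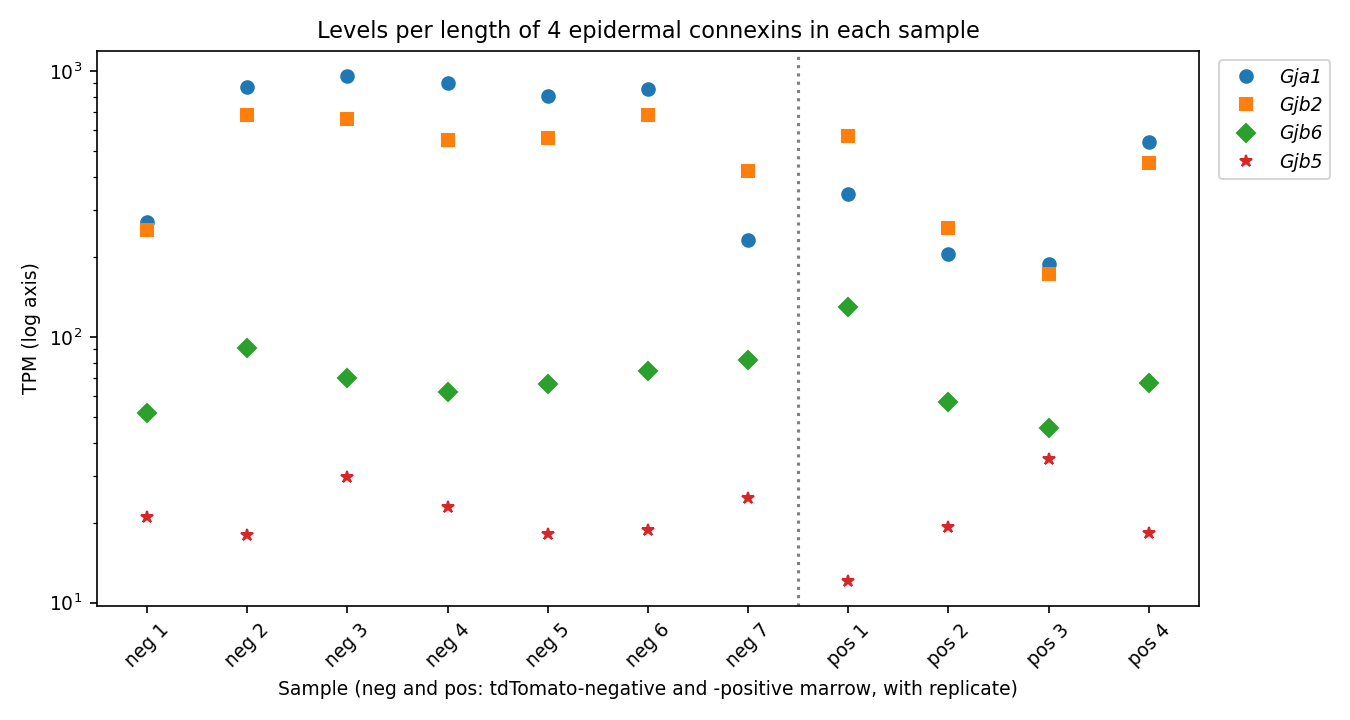
TPM on a log axis for the 4 epidermal connexins in each of the 11 samples (neg and pos, tdTomato-negative and tdTomato-positive marrow, with replicate number). Gja1 and Gjb2 lie above Gjb6, and Gjb6 above Gjb5, in all 11 samples, and Gjb2 is lowest in positive replicate 3 at 172 TPM.

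The order of the 4 levels was tested on the log2 ratio of TPM within each sample, with two-sided exact sign permutation over the 11 samples and adjustment over 6 pairs. Gjb2 exceeded Gjb6 in 11 of 11 samples, by 6.30-fold as a geometric mean, and Gjb6 exceeded Gjb5 in 11 of 11, by 3.34-fold. Each of the 5 pairs other than Gjb2 with Gja1 had an adjusted exact permutation p of 0.00117, whose raw value of 0.000977 is the smallest that the sign patterns can give. Gjb2 and Gja1 did not differ beyond their spread, with a mean log2 ratio of -0.09 ± 0.52 (SD, n = 11; exact permutation p = 0.551). Gjb2 was above Gja1 in 3 samples, which were negative replicate 7 and positive replicates 1 and 2. In the other 8 samples Gja1 was the higher.

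Gja1, the widest expressed of the 4, varied most between the samples. In negative replicates 1 to 7 it stood at 483, 1671, 1923, 1628, 1551, 1664 and 409 CPM. In positive replicates 1 to 4 it stood at 655, 390, 333 and 975 CPM. Thus 5 of the 7 negative samples lay above every positive sample, while negative replicates 1 and 7 lay inside the positive range and the groups overlapped. The means were 1333 ± 617 CPM (SD, n = 7) in the negative and 588 ± 294 CPM (SD, n = 4) in the positive group. The fitted log2 fold change, positive minus negative, was -1.18 ± 0.46 (SE), with a 95% interval of -2.19 to -0.17, and edgeR's quasi-likelihood test over 14588 genes gave an adjusted p of 0.261.

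Gjb2, the connexin most tied to epidermal activation, varied in the same direction by less. It stood at 342, 988, 1003, 751, 817, 1009 and 559 CPM in negative replicates 1 to 7 and at 821, 370, 230 and 616 CPM in positive replicates 1 to 4. The lowest level was in positive replicate 3, but positive replicate 1 lay among the higher negative samples, and the groups overlapped. The means were 781 ± 254 CPM (SD, n = 7) and 510 ± 262 CPM (SD, n = 4), and edgeR gave a log2 fold change of -0.62 ± 0.36 (SE; 95% interval -1.39 to 0.16) at an adjusted p of 0.383. Without positive replicate 1 the fold change was -0.95 and without positive replicate 3 it was -0.36.

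Gjb6 had like means in both groups. It stood at 61.0, 114, 92.2, 73.9, 83.2, 94.7 and 94.3 CPM in negative replicates 1 to 7. In positive replicates 1 to 4 it stood at 161, 70.9, 52.6 and 79.0 CPM. Its highest and its lowest value were both positive samples. The log2 fold change was 0.05 ± 0.26 (SE), with a 95% interval of -0.52 to 0.62 and an edgeR adjusted p of 0.935. Without positive replicate 1 it was -0.38, and without negative replicate 1 it was -0.0038. With limma-voom on all 11 samples it was -0.055, so the sign was not stable.

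Gjb5 also had like means. It stood at 19.3, 17.7, 30.6, 21.3, 17.9, 18.7 and 22.5 CPM in negative replicates 1 to 7 and at 11.8, 18.9, 31.5 and 16.9 CPM in positive replicates 1 to 4. Positive replicate 1, which held the most Gjb6, held the least Gjb5, and positive replicate 3 held the least Gjb6 and the most Gjb5. Its counts ranged from 95 to 307. The 95% Poisson interval of the lowest value was 9.58 to 14.5 CPM and that of the highest was 28.1 to 35.3 CPM, so this gap exceeded counting error. The log2 fold change was -0.09 ± 0.23 (SE), with a 95% interval of -0.60 to 0.42 and an edgeR adjusted p of 0.865.

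**Figure D2:**
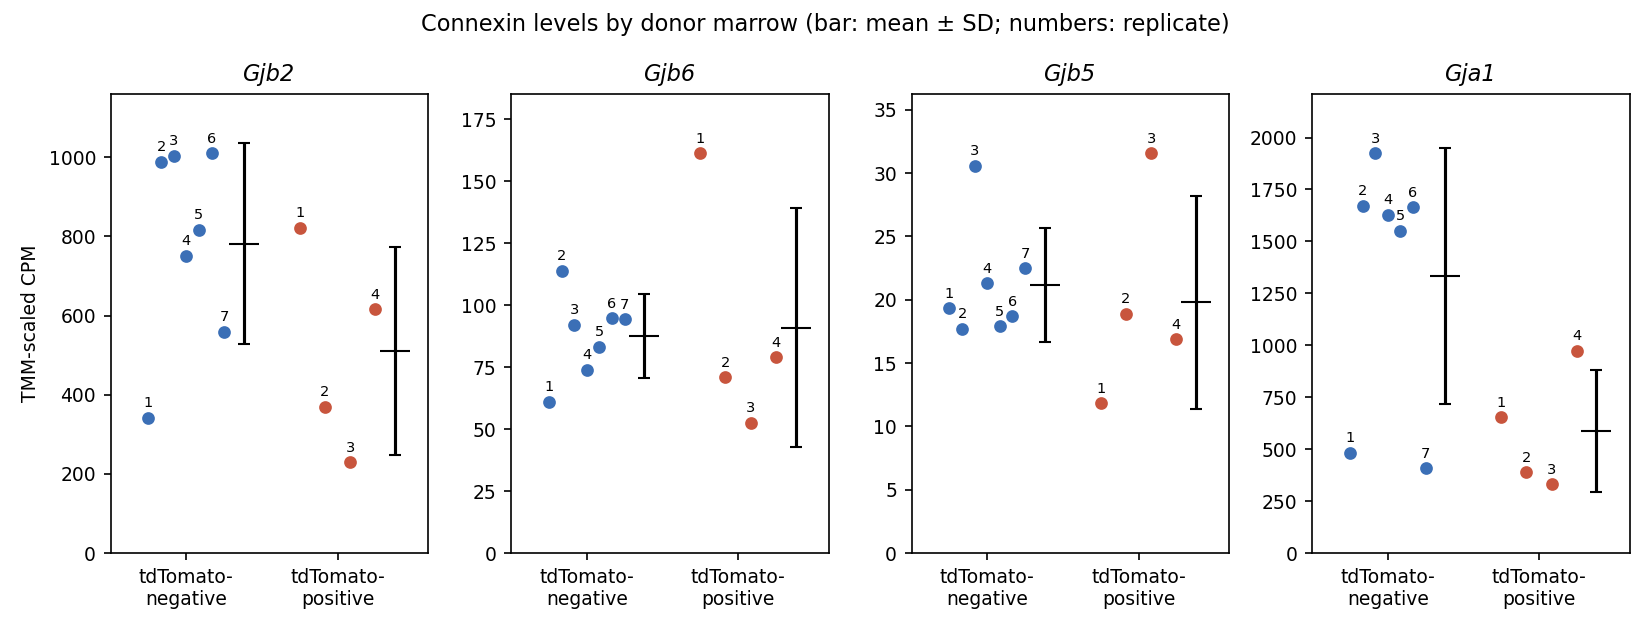
TMM-scaled CPM of Gjb2, Gjb6, Gjb5 and Gja1 by donor marrow, with a point per sample numbered by replicate and the mean ± SD as a bar beside each group (n = 7 negative, n = 4 positive). The groups overlap in all 4 genes, and negative replicates 1 and 7 lie low for Gja1 at 483 and 409 CPM.

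None of the 4 genes passed the adjusted threshold of 0.05, and 0 of all 14588 tested genes did (0% called, smallest adjusted p 0.248). At an unadjusted p under 0.05, 1 of the 4, Gja1, was lower in the positive group, beside 9.73% of all tested genes. A further 7.05% were higher, among them none of the 4, so that 2448 genes (16.8%) passed in either direction. The groups overlapped in all 4, and did not overlap in 1.67% of all genes. DESeq2 called 83 genes, none of the 4 among them. Limma-voom with sample quality weights called 2093 genes, among them Gja1 (log2 fold change -1.55, adjusted p = 0.0230) and Gjb2 (-0.90, adjusted p = 0.0476). Over the 14 fits other than leaving out a sample, the adjusted p ranged from 0.0230 to 0.940 for Gja1 and from 0.0476 to 0.947 for Gjb2.

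The samples differed widely in hair follicle RNA, and Gja1 was higher in all samples rich in it than in the rest. The hair follicle list of 25 keratin, trichohyalin and follicle regulator genes took 2.72% to 4.94% of the counts in negative replicates 2 to 6 and 1.55% in positive replicate 4. It took 0.0418% to 0.326% in the other 5 samples. Its 25 tested genes all had fold changes below 0, none was at 0 counts in any sample, and their summed level ranged from 424 to 50187 CPM in the negative and from 589 to 15177 CPM in the positive group. The 6 samples with the most hair RNA were also the 6 with the most Gja1. Gjb2 overlapped between these sets, since positive replicate 1, poor in hair RNA, held 821 CPM, above negative replicates 4 and 5. In negative replicates 1 and 7 the hair list took 0.290% and 0.0418%, beside the low Gja1 levels given above. In the fit with the hair score as covariate, Gja1 had a log2 fold change of -0.27 (edgeR adjusted p = 0.667), Gjb2 of -0.21 (adjusted p = 0.844), Gjb6 of 0.14 and Gjb5 of -0.15. With the basal keratinocyte score as covariate instead, Gja1 was at -0.50 (edgeR adjusted p = 0.940) and Gjb2 at -0.42 (adjusted p = 0.947). The part of hair or basal keratinocyte content in the group difference was not tested beyond these fits. In RNA of whole skin, fewer cells of a type and less RNA per cell cannot be told apart.

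**Figure D3:**
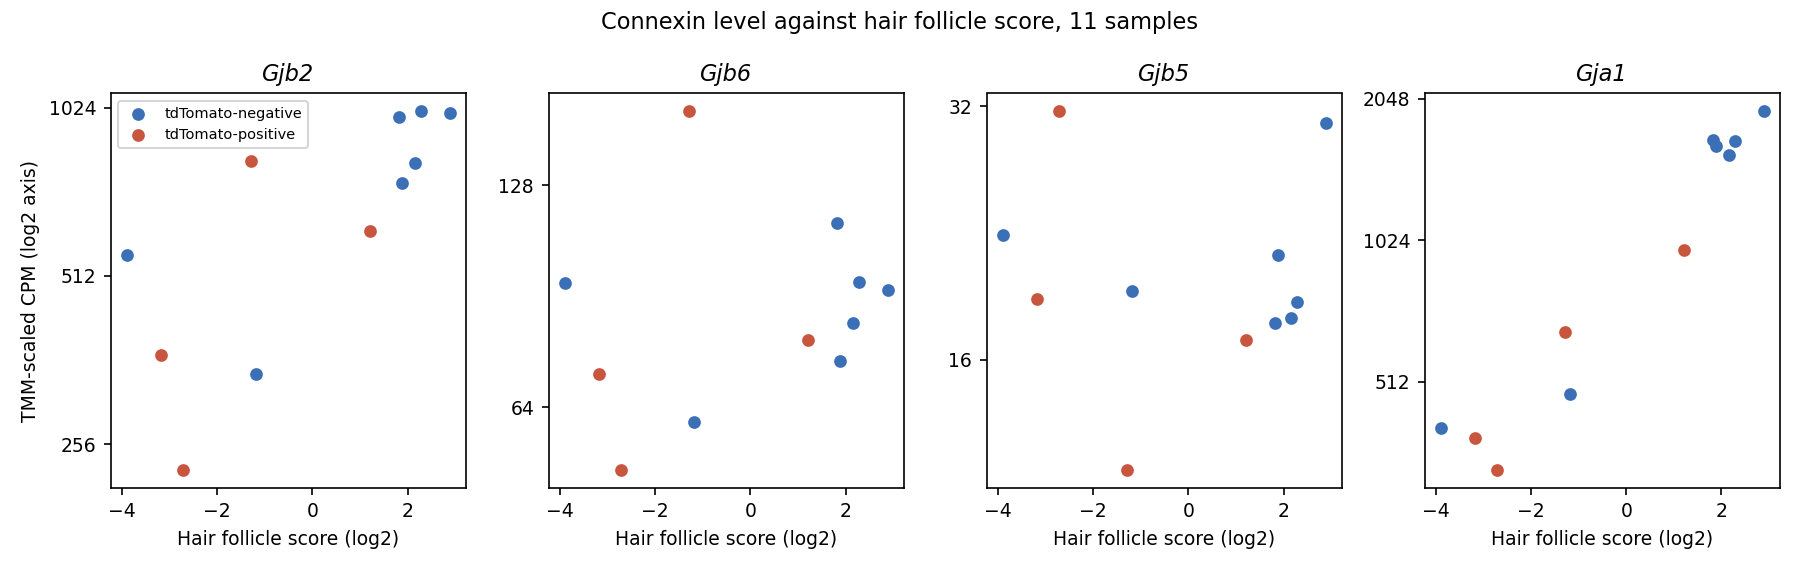
CPM on a log2 axis for the 4 connexins against the hair follicle score (mean log2 CPM of 25 genes, each centred on its mean over the samples) in 11 samples, coloured by donor marrow. Scores form a lower set of 5 samples and an upper set of 6, and Gja1 is higher in all 6 of the upper set than in the lower one.

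Relations between the 4 connexins and 5 marker scores, 20 in all, were tested over samples with Pearson's r and Spearman's rho. A score is the mean log2 CPM of a list's genes, each centred on its own mean. Hair scores fell into separate sets, from -3.89 to -1.18 in 5 samples and from 1.21 to 2.88 in 6, so no r over all samples is given for them. Within the 6 upper samples, Gja1 had r = 0.862 (exact permutation p = 0.0472, adjusted 0.135) and rho = 0.600 (exact permutation p = 0.242). This rested on the 2 samples farthest from the median score, since r over the other 4 was -0.266. Gjb2 had r = 0.778 there (exact permutation p = 0.0556, adjusted 0.139) and rho = 0.771 (exact permutation p = 0.103), with r = 0.272 over the other 4. Gjb5 had r = 0.791 (exact permutation p = 0.0736, adjusted 0.164) and rho = 0.829 (exact permutation p = 0.0583), with r = -0.259 over the other 4. Gjb6 had r = 0.265 (exact permutation p = 0.636, adjusted 0.658). None of the 4 relations with hair passed after adjustment within these upper samples. Over the 7 negative samples, Gja1 had r = 0.965 with the hair score (exact permutation p = 0.00317, adjusted 0.0265) and rho = 0.750 (exact permutation p = 0.0663). Gjb2 had r = 0.742 there (exact permutation p = 0.0567, adjusted 0.160), Gjb6 0.207 and Gjb5 0.0325. Negative replicates 1 and 7 belong to the lower set, so these r span the gap between the sets.

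Of the 20 relations, 2 passed after adjustment by Pearson's r, those of Gja1 with the fibroblast and basal keratinocyte scores. By Spearman's rho 5 passed, which were these 2, Gja1 with the stress keratins, and Gjb2 with the proliferation and fibroblast scores. Gja1 ran against the fibroblast score over 11 samples, with r = -0.821 (permutation p = 0.00461, adjusted 0.0464) and rho = -0.845 (permutation p = 0.00179, adjusted 0.0358). Without the 2 samples farthest from the median score r was -0.874, and over the 7 negative samples alone it was -0.805 (exact permutation p = 0.0252, adjusted 0.0919). Gja1 also ran against the basal keratinocyte score, with r = -0.766 (permutation p = 0.00464, adjusted 0.0464) and rho = -0.809 (permutation p = 0.00419). Without the 2 farthest samples that r was -0.702, and within the negative group it was -0.776 (exact permutation p = 0.00397, adjusted 0.0265). With both measures centred within the groups, adjusted permutation p was 0.0537 for both relations, adjusted over the relations other than those with hair. Both scores split with the hair sets. The fibroblast score was -0.426 to -0.048 in the 6 upper samples and -0.009 to 0.449 in the 5 lower ones. The basal keratinocyte score was -0.382 to -0.030 against -0.017 to 0.314. These r, over 11 samples or the 7 negative ones, thus span the gap between the hair sets. The part of hair content in them was not tested.

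The link of Gjb2 and Gjb6 to the activated epidermis was set beside the stress keratins Krt6a, Krt6b and Krt16, which keratinocytes make in wounds and inflamed skin. Krt6b stood at 787 to 6392 CPM in the negative and at 2967 to 8136 CPM in the positive group. Over 11 samples the stress keratin score had r = -0.389 with Gjb2 (permutation p = 0.243, adjusted 0.374) and r = 0.163 with Gjb6 (permutation p = 0.616, adjusted 0.658). Spearman's rho was -0.436 (permutation p = 0.183) and 0.0727 (permutation p = 0.841). Without the 2 samples farthest from the median score, r was -0.485 and -0.0890, and over the 7 negative samples it was -0.433 (exact permutation p = 0.308) and 0.0139 (exact permutation p = 0.978). Neither gene rose detectably with these keratins over samples that had all received MC903. For Gja1 r was -0.672 (permutation p = 0.0109, adjusted 0.0713), rho was -0.745 (permutation p = 0.0104, adjusted 0.0442), r without the 2 farthest samples was -0.752 and r within the negative group was -0.638 (exact permutation p = 0.0881). Single samples differed: positive replicate 1 held both the most Krt6b (8136 CPM) and the most Gjb6. Negative replicate 3 held the least Krt6b (787 CPM) and 1003 CPM of Gjb2, with the largest share of hair RNA (4.94%). The part of hair content in the relations with stress keratins was not tested.

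With the proliferation score, the mean of 10 cell cycle genes, Gjb2 had r = 0.694 over 11 samples (permutation p = 0.0178, adjusted 0.0713). Spearman's rho was 0.773 (permutation p = 0.00726, adjusted 0.0442). Without the 2 samples farthest from the median score r was 0.540 (permutation p = 0.133). Over the 7 negative samples it was 0.909 (exact permutation p = 0.00992, adjusted 0.0496), and negative replicate 1, with a score of -1.19, was 1 of the farthest samples there. With both measures centred within the groups r was 0.82 (adjusted permutation p = 0.0114). The centred p-values were adjusted over the relations other than those with hair, a smaller set, and the permutations mixed the groups. Gja1 had r = 0.570 with this score (permutation p = 0.0331, adjusted 0.110), rho = 0.600 (permutation p = 0.0567), 0.573 without the 2 farthest samples, 0.708 in the negative group (n = 7, exact permutation p = 0.0639) and 0.72 centred (adjusted 0.0537). Gjb6 had r = 0.543 (permutation p = 0.102, adjusted 0.205) and rho = 0.618 (permutation p = 0.047, adjusted 0.117). Gjb5 had r = -0.242 (permutation p = 0.420, adjusted 0.526) and rho = -0.673 (permutation p = 0.0281, adjusted 0.0938). Whether these relations differ between the 4 genes was not tested.

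Gjb2 ran against the fibroblast score, with r = -0.702 (permutation p = 0.0172, adjusted 0.0713) and rho = -0.745 (permutation p = 0.011, adjusted 0.0442). Without the 2 farthest samples that r was -0.888, and over the 7 negative samples it was -0.981 (exact permutation p = 0.000794, adjusted 0.0159). The fibroblast score was lower in all 6 upper hair samples than in the 5 lower ones, which include negative replicates 1 and 7. These r too span the gap between the hair sets, and the part of hair content was not tested.

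The ratio of the hyperproliferation-linked connexins to Gja1 was compared between the groups within samples. The Gjb2 to Gja1 ratio of TPM was 0.936, 0.781, 0.689, 0.610, 0.696, 0.802 and 1.81 in negative replicates 1 to 7. In positive replicates 1 to 4 it was 1.66, 1.25, 0.913 and 0.835. Negative replicate 7 held the highest ratio of all, and the groups overlapped. The mean log2 ratio was 0.41 higher in the positive group, with 0.17 ± 0.45 (SD, n = 4) against -0.24 ± 0.52 (SD, n = 7; two-sided exact permutation p = 0.252, adjusted over 6 pairs 0.377).

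The Gjb6 to Gja1 ratio ranged from 0.0693 to 0.351 in the negative and from 0.124 to 0.377 in the positive group. Its mean log2 value was -2.08 ± 0.68 (SD, n = 4) against -3.13 ± 0.87 (SD, n = 7), a difference of 1.05 (exact permutation p = 0.0697, adjusted 0.209). The Gjb2 to Gjb6 ratio ranged from 4.88 to 9.42 in the negative and from 3.78 to 6.75 in the positive group. Its difference of -0.64 on the log2 scale had the smallest p of the 6 pairs (exact permutation p = 0.0394, adjusted 0.209). The pairs with Gjb5 differed by 0.94 (Gjb5 to Gja1), -0.53 (Gjb2 to Gjb5) and 0.11 (Gjb6 to Gjb5), with adjusted exact permutation p of 0.358, 0.491 and 0.815. The Gjb5 to Gja1 difference was 0.46 without positive replicate 3. No pair passed with all 11 samples. Without negative replicate 7, the ratios of Gjb2 to Gja1 (difference 0.59), Gjb6 to Gja1 (1.32) and Gjb2 to Gjb6 (-0.73) passed. Their adjusted exact permutation p was 0.0286. Leaving out any other single sample made no pair pass. The Gjb2 to Gjb6 ratio came to the threshold without positive replicate 4 (adjusted exact permutation p = 0.05). The smallest p that the 330 splits of all samples can give is 0.00303.

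**Figure D4:**
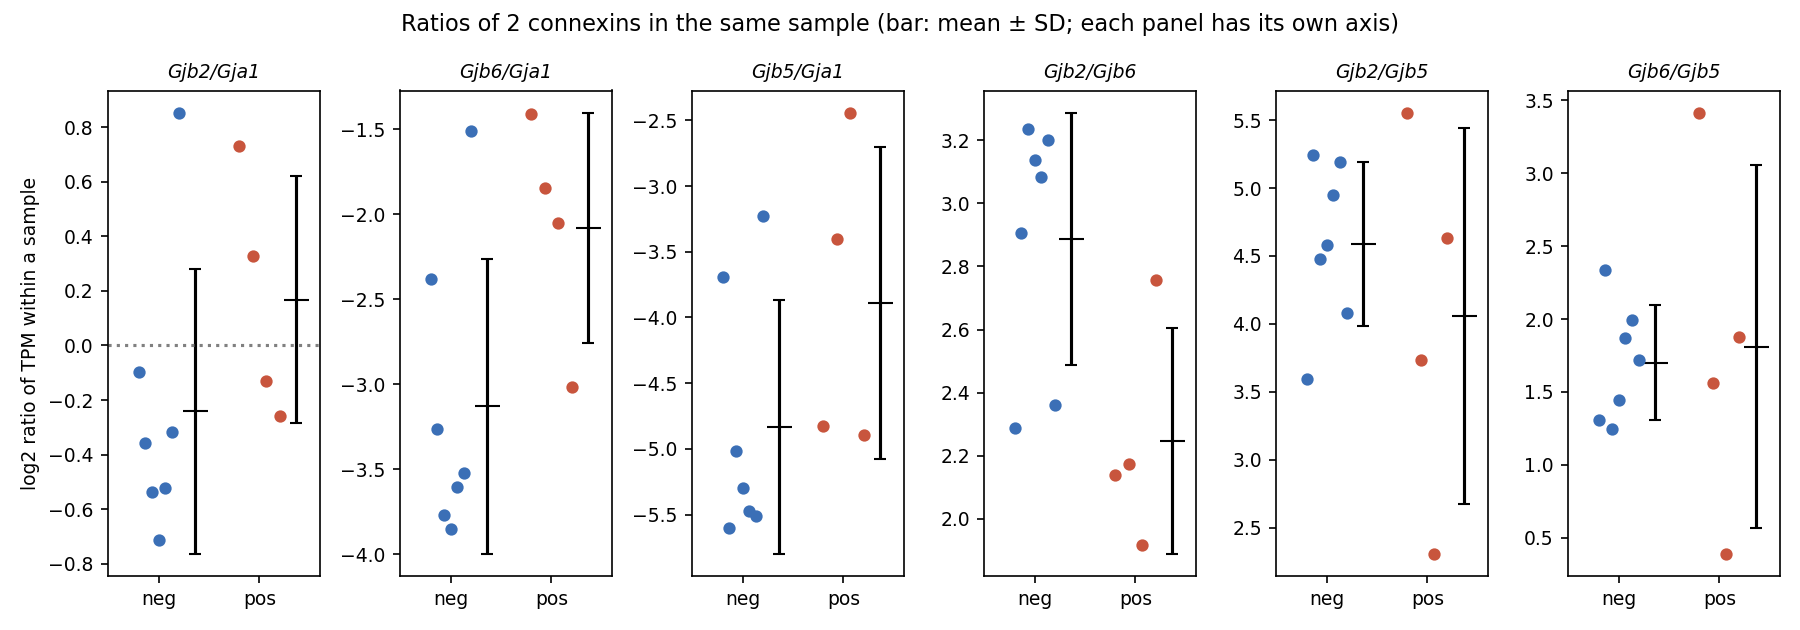
Log2 ratio of TPM between 2 connexins in the same sample, for all 6 pairs, by donor marrow (neg, n = 7, and pos, n = 4), with the mean ± SD as a bar beside each group and a separate axis per pair. The groups overlap in every pair, and 1 negative sample (replicate 7) has the highest Gjb2 to Gja1 log2 ratio at 0.85.

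The genes whose log2 CPM ran most like each connexin over the 11 samples were ranked by Pearson's r, as a description without a test, since they are the best of 14588. For Gja1 they were Slc7a8, an amino acid transporter (r = 0.997), AW011738, Rnd3, Tm4sf1 and the hair keratin-associated gene Krtap4-13 (r = 0.991). Gja1 itself was higher in all samples of the upper hair set than in the lower one. The part of these sets in the r values was not tested. For Gjb2 they were Ruvbl2 (r = 0.951), Arf1, a GTPase of vesicle transport, Steap1, Prps1l3 and Prep. For Gjb6 they were Phlda1 (r = 0.957), Nipa1, Pfdn4, Dsg3, a desmosomal cadherin of lower epidermal layers (r = 0.881), and Nup98. For Gjb5 they were Vps11 (r = 0.948), Man2c1, Dhrs4, Zc3h7b and Thsd4.

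Of the 20 connexin genes, 12 passed the filter on low counts, and 8 did not, with at most 13 counts in any sample (Gja6). Among the 12, 4 were fitted above 0 and 8 below. Their median log2 fold change was -0.11, against -0.01 over all tested genes. At an unadjusted p under 0.05 there were 2 of the 12, near the 16.8% of all genes, and 0 passed adjusted. Gja3, the lens connexin that neighbours Gjb2, had 0.772, 6.41, 13.9, 6.67, 9.02, 14.4 and 0 CPM in negative replicates 1 to 7. Positive replicates 1 to 4 held 1.62, 0.256, 0.308 and 4.59 CPM of it, so it too was highest in the 6 samples with the most hair RNA, at up to 121 counts.

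The connexins of vessel walls had fold changes above 0. Gjc1 (Cx45), found in vascular smooth muscle, was at 4.18 ± 1.04 CPM (SD, n = 7) in the negative samples and 7.11 ± 1.76 CPM (SD, n = 4) in the positive ones, from 26 to 78 counts. The fit gave 0.76 ± 0.21 (SE) on the log2 scale at an edgeR adjusted p of 0.248. The ranges overlapped, since negative samples reached 6.31 CPM and positive samples began at 5.86 CPM. Gja4 (Cx37) and Gja5 (Cx40), endothelial connexins, had log2 fold changes of 0.32 ± 0.27 and 0.52 ± 0.26 (SE). All 9 endothelial markers also had fold changes above 0, beside 7093 of all 14588 tested genes. Their summed level was 192 to 321 CPM in the negative and 263 to 354 CPM in the positive group. All fibroblast (10), macrophage (7), skeletal muscle (8) and adipocyte (5) markers were above 0 too, so this was not particular to vessels. Of 5 smooth muscle and pericyte markers, 3 were above 0 and 2 below. All 25 hair follicle and 5 melanocyte markers were below 0. The part of these cell types in the connexin values was not tested. Of the 3 pannexin channel genes, 2 were tested and neither passed at an unadjusted p under 0.05.

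Among 12 genes whose proteins bind, anchor, phosphorylate or turn over connexins, 3 were fitted above 0 and 9 below, with a median log2 fold change of -0.11, and 0 passed adjusted. At an unadjusted p under 0.05 there were 5, against 16.8% of all genes. Dbn1 (drebrin), an actin binder that holds Cx43 at the membrane, had a log2 fold change of -0.74 ± 0.18 (SE). Tjp1 (ZO-1), the scaffold that binds the tail of Cx43, had -0.18 ± 0.08 and Ubqln4 had -0.22 ± 0.09. Cav1, the caveolin of endothelium and fibroblasts, had a log2 fold change of 0.57 ± 0.18 (SE), with 103 to 236 CPM in the negative and 218 to 248 CPM in the positive samples.

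**Figure D5:**
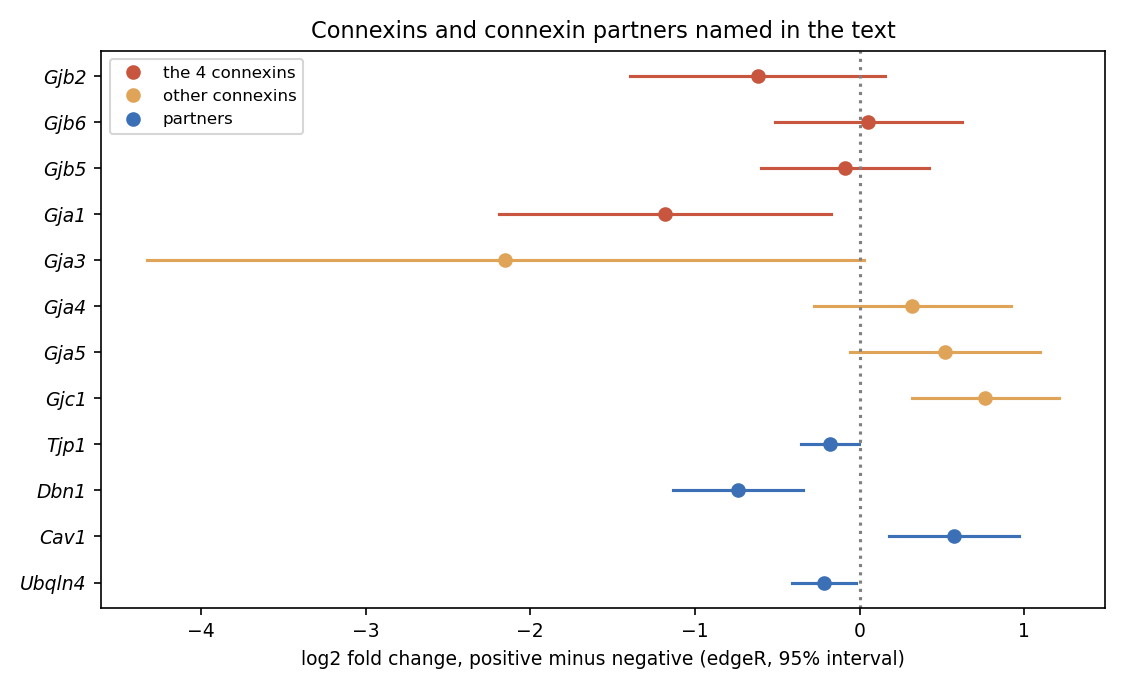
Log2 fold change, positive minus negative, with its 95% interval from the edgeR fit for the 4 connexins and for other connexins and partner genes named in the text. Gja1 (-1.18) and Gja3 (-2.15) lie farthest below 0 and Gjc1 (0.76) farthest above, and none passed the adjusted threshold.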

How the data were processed

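RNA of 11 skin samples was measured, 7 that had received tdTomato-negative and 4 that had received tdTomato-positive cells. Tools named in the submitters' processing notes are RSEM, Trim Galore and bcl2fastq, with the build GRCm38. For their versions, the aligner and the use of strand, no statement is given in the sources used here. Expected counts as deposited are RSEM estimates per gene, not normalized, per the file headers. The TPM and FPKM deposited by the authors are scaled by effective length, and the effective lengths deposited by the authors served an offset.

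Expected counts were rounded, filtered with filterByExpr (minimum count 10, minimum total 15) and scaled with TMM factors. The test was glmQLFit and glmQLFTest of edgeR 4.0.16 (R 4.3.3, legacy mode) with group as the only term, and Benjamini-Hochberg adjusted p under 0.05 over all genes tested. SEs were taken as the absolute log2 fold change over the root of the F statistic. Log2 CPM used a pseudocount of 0.5, and log2 TPM ratios used none. With 10 or more values, relations were tested with 100000 permutations. The rule that a gap over 30% of the range separates scores into sets was set after the scores were seen. Poisson intervals cover counting error alone and take each read as a separate molecule. Whether molecular identifiers were used to count molecules is not given by the tools named above.

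The members and lists were chosen with earlier results of these data known. Named genes were the members, the tested family, partners with an unadjusted p under 0.05, 5 keratin markers and the 5 genes most correlated with each member, leaving out predicted genes. Some genes of these lists are not reported here. Alternatives were other scalings and filters, DESeq2 1.42.0, limma 3.58.1 (voom, and trend on log2 TPM), covariates, a replicate block and leaving out samples. No library was a copy of another: the chi-square per degree of freedom over 55 pairs had a minimum of 3.43. The edgeR fit, the permutation of group splits and the exact permutation of relations were first tried on simulated data. The other tests were not.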

Additional observations from a re-analysis of the deposited data

Results flagged for a closer look

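Of 30 sets of values tested for a value far from the rest of its group, 3 held one, where chance gives about 1.5. Gjb5 stood at 30.6 CPM in negative replicate 3, against 17.7 to 22.5 CPM in the other 6 negative samples. The log2 TPM ratio of Gjb2 to Gja1 was 0.85 in negative replicate 7, against -0.71 to -0.10 in the others. The proliferation score was -1.19 in negative replicate 1, against -0.07 to 0.40 in the others.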

How the results depend on the processing

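The count of 0 genes became 83 with DESeq2 and 2093 with quality-weighted limma-voom, and 0 to 3 when 1 sample was left out (1 without negative replicate 4, 3 without negative replicate 7). The log2 fold change of Gja1 stayed below 0 in all 25 other fits, at -1.54 to -0.97 with 1 sample left out. It passed only with quality-weighted limma-voom, at -1.55, as did Gjb2 at -0.90, whose value with 1 sample left out was -0.95 to -0.36. The value of Gjb6 was -0.055 with limma-voom, -0.11 with quality weights, -0.026 with limma-trend on log2(TPM + 1), -0.027 on log2(TPM + 0.1), -0.082 with the basal keratinocyte score as covariate and -0.38 to 0.26 with 1 sample left out. With the basal score Gja1 was at -0.50 and Gjb2 at -0.42. The value of Gjb5 was 0.034 with it and -0.41 to 0.091 with 1 sample left out. The cause of these reversals was not tested. Deviations of same-numbered samples correlated at -0.04, -0.14, -0.05 and 0.34, and none matched its own number best. No pairing by replicate number was thus seen, but so few values without a test cannot exclude one. With the replicate block on 8 samples, 0 genes passed and Gjb6 was at -0.014, while the same samples without the block, a fit chosen after seeing the data, gave 0.09.

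With 1 sample left out, the log2 ratio difference ranged over 0.22 to 0.59 for Gjb2/Gja1, 0.83 to 1.36 for Gjb6/Gja1, 0.46 (without positive replicate 3) to 1.27 for Gjb5/Gja1, -0.81 to -0.53 for Gjb2/Gjb6, -1.03 to 0.050 for Gjb2/Gjb5 and -0.43 to 0.58 for Gjb6/Gjb5. The relation of Gja1 to the basal score was -0.76 with log2(TPM + 1) and -0.69 centred within groups, and that to the fibroblast score -0.82 and -0.74, all with adjusted p just above 0.05 (0.0526 and 0.0537). That of Gjb2 to proliferation was 0.82 centred within groups and then passed. Hair relations could not be centred, since the upper set holds 1 positive sample. The centred values were therefore adjusted over the other relations only. The order of levels kept its calls in all 13 alternatives. Depth limits Gjb5, with 95 to 307 counts.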

Other observations

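The levels of the 4 connexins were compared with each other over the 11 samples in 6 pairs, chosen after the results were seen. Gjb2 and Gja1 had r = 0.868 (permutation p = 0.00032, adjusted 0.00192) and rho = 0.882 (permutation p = 0.00078). Without the 2 samples farthest from the median of Gjb2 this r was 0.839, and in the negative group it was 0.875 (n = 7, exact permutation p = 0.0262). The neighbours Gjb2 and Gjb6 had r = 0.746 (permutation p = 0.00712, adjusted 0.0214) and rho = 0.800 (permutation p = 0.00482). Without the 2 farthest samples r was 0.474, so part of that relation rested on them, and in the negative group it was 0.758 (n = 7, exact permutation p = 0.0446). Gjb6 and Gja1 had r = 0.361 (permutation p = 0.281, adjusted 0.368). Gjb6 and Gjb5 had r = -0.629 (permutation p = 0.0396, adjusted 0.0792), which was 0.119 without the 2 farthest samples and 0.0232 in the negative group (n = 7, exact permutation p = 0.954), so it rested on those samples. The part of hair content in these relations was not tested.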
